A study of Mus musculus with 22 samples.

Results

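Type I interferon response genes were followed in the mouse renal capsule, a fibrous layer that wraps the kidney, and in macrophages. The set held 33 genes of 52636 in the count files. They were chosen by symbol as genes known to be induced by type I interferon, and each symbol matched 1 Ensembl identifier. The rule held no measured value, but the list was made with earlier results of these data known. Member counts set beside those of all genes therefore describe the list and are no test of it. By role they are the RNA-binding effectors Ifit1, Ifit2 and Ifit3, the membrane effectors Ifitm3 and Bst2, the nucleotide enzymes Rsad2 and Cmpk2, the exonuclease Isg20, the ubiquitin-like system of Isg15, Usp18 and Herc6, and the GTPases Mx1 and Mx2. The oligoadenylate synthase family is Oas1a, Oas2, Oas3, Oasl1 and Oasl2. The nucleic acid sensors are Ddx58, Ifih1, Dhx58, Zbp1 and Eif2ak2, the transcription factors are Irf1, Irf7, Irf9 and Stat2, and the remaining members are Ifi35, Ifi44, Parp14, Rtp4, Trim30a and Xaf1.

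Cells that sense viral or misplaced nucleic acid secrete interferon alpha and beta, which bind the receptor pair Ifnar1 and Ifnar2 on the same and neighbouring cells. The receptor-bound kinases Jak1 and Tyk2 then start a signal in which Stat2 and Irf9 bind, within a complex, a DNA element, the interferon-stimulated response element (ISRE), in front of the response genes. Macrophages are known both as sensors of nucleic acid and as cells with a standing low level of these transcripts.

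RNA was sequenced in bulk in 22 libraries of 6 groups: capsule tissue of aged and of young mice (3 libraries each), macrophages of the capsule and of the kidney (4 each), and aged and young libraries named RCAM (4 each). No treatment was given. The labels name no strain, sex, exact age or batch, state no age for macrophages of either source, do not spell out RCAM and do not say that replicates were separate animals, so the spread behind each p-value may be technical. Library totals were 27.1 to 43.2 M (1e6) counts in aged capsules and 20.6 to 22.2 M in young capsules, 39.3 to 53.4 M in capsule macrophages and 31.8 to 49.9 M in kidney macrophages, and 45.0 to 51.8 M in aged RCAM and 49.8 to 54.4 M in young RCAM. RCAM carries the label whole tissue, whereas the design text has capsules either sequenced whole or sorted for macrophages. The summed level of 15 pan-macrophage genes, in counts per 1e6 of the library total, was 43340 to 47600 in aged RCAM and 42330 to 44990 in young RCAM, against 41150 to 44780 in capsule macrophages. It was 4877 to 12270 in aged and 2349 to 4754 in young capsule tissue. Adipocyte genes summed to 157 to 234 in aged RCAM and 134 to 168 in young RCAM, against 20860 to 39150 in aged capsule tissue. The markers thus went against whole tissue as a description of RCAM, and these libraries are called RCAM here.

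The members were chosen as genes induced by interferon, which acts through the ISRE, so a high share of this element is no independent result. In RefSeq promoter windows of GRCm38.p6, from 250 bases before to 50 bases after a gene start, the ISRE core, GAAA followed by any 2 bases and GAAA, was found on either strand in 13 of the 25 members that have a window (52.0%), against 3.99% of all 27025 genes with a window. The longer form, the core followed by CT, was found in 7 members (28.0%) and 0.303% of all genes. The GAS element TTCNNNGAA, a second element of interferon signalling that was searched in the same way, was found in 8 members (32%) and 9.55% of all genes. Dhx58, Mx1, Mx2, Oas2, Parp14, Rtp4, Usp18 and Zbp1 had no window. A match describes letters and is not evidence of binding.

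Stretches of 280 bases, ending 30 bases after the gene start, are shown for 4 members with an ISRE core and for 2 without one, chosen because the comparisons below turn on them or, for Isg15, because 3 cores overlap. They are written 5′ to 3′ on the strand of the gene, with ISRE cores in capitals.
Ifitm3 (chr7:141010715-141010994, minus strand): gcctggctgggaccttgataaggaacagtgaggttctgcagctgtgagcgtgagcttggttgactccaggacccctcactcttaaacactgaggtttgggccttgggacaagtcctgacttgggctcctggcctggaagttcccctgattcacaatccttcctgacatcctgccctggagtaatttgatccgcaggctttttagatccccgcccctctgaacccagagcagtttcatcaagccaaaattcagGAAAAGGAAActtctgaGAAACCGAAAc
Trim30a (chr7:104465164-104465443, minus strand): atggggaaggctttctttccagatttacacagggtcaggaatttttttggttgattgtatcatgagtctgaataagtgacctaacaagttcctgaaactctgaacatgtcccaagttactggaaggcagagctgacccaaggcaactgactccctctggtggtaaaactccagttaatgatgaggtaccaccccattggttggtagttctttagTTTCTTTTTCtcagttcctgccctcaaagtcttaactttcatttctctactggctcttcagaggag
Eif2ak2 (chr17:78882543-78882822, minus strand): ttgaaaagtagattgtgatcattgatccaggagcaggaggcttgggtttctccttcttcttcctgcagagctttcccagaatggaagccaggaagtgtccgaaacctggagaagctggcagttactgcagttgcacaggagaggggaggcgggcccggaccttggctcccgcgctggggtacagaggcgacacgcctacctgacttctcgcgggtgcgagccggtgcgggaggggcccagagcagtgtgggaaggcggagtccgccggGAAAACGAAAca
Isg15 (chr4:156200789-156201068, minus strand): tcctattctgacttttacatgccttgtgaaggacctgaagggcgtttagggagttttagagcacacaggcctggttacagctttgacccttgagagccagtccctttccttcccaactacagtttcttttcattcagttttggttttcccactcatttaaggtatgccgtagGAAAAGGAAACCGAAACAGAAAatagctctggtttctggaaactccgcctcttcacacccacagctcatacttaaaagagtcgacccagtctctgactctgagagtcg
Oasl1 (chr5:114922990-114923269, plus strand): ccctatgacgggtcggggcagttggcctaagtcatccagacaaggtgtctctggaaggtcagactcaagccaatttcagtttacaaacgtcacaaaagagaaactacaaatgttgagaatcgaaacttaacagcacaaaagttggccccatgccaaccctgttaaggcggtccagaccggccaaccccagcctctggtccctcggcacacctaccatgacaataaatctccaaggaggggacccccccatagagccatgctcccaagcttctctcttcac
Ifi44 (chr3:151749881-151750160, minus strand): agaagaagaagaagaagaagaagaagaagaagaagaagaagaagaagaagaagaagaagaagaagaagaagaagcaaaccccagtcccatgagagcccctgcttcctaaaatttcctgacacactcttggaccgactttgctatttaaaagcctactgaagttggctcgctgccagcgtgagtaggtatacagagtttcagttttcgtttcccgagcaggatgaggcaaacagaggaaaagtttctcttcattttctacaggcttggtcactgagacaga

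Ifitm3 carried 2 cores just behind its start, the Isg15 cores run into each other, and in Trim30a and Eif2ak2 a single core lies near the start. Oasl1 and Ifi44 held no exact core in these windows. The lack of a match says only that these letters are not in the window.

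Per kb of exon, and in CPM (counts per 1e6 of the library total), Ifitm3 was the highest member in all 6 groups. It averaged 404 ± 107 CPM per kb in aged capsules and 307 ± 70.2 in young capsules, 1188 ± 48.3 in capsule macrophages and 398 ± 69.5 in kidney macrophages, and 935 ± 109.8 in aged RCAM and 1099 ± 88.8 in young RCAM (SD, n = 3 for capsule tissue and 4 elsewhere). Ifitm3 blocks the fusion of virus with endosomes, and its means were highest in capsule macrophages and RCAM. Bst2, a tether that holds budding virus at the membrane, followed with 91.9 ± 10.6 CPM per kb in aged capsules and 78.1 ± 14.4 in young capsules, and with 184 ± 31.7 in aged RCAM and 174 ± 8.85 in young RCAM. Irf1, Rtp4 and Ifi35 came next over the 6 group means. At the lower end, Mx2, Herc6 and Ifi44 stayed under 5 CPM per kb in every group mean.

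**Figure D1:**
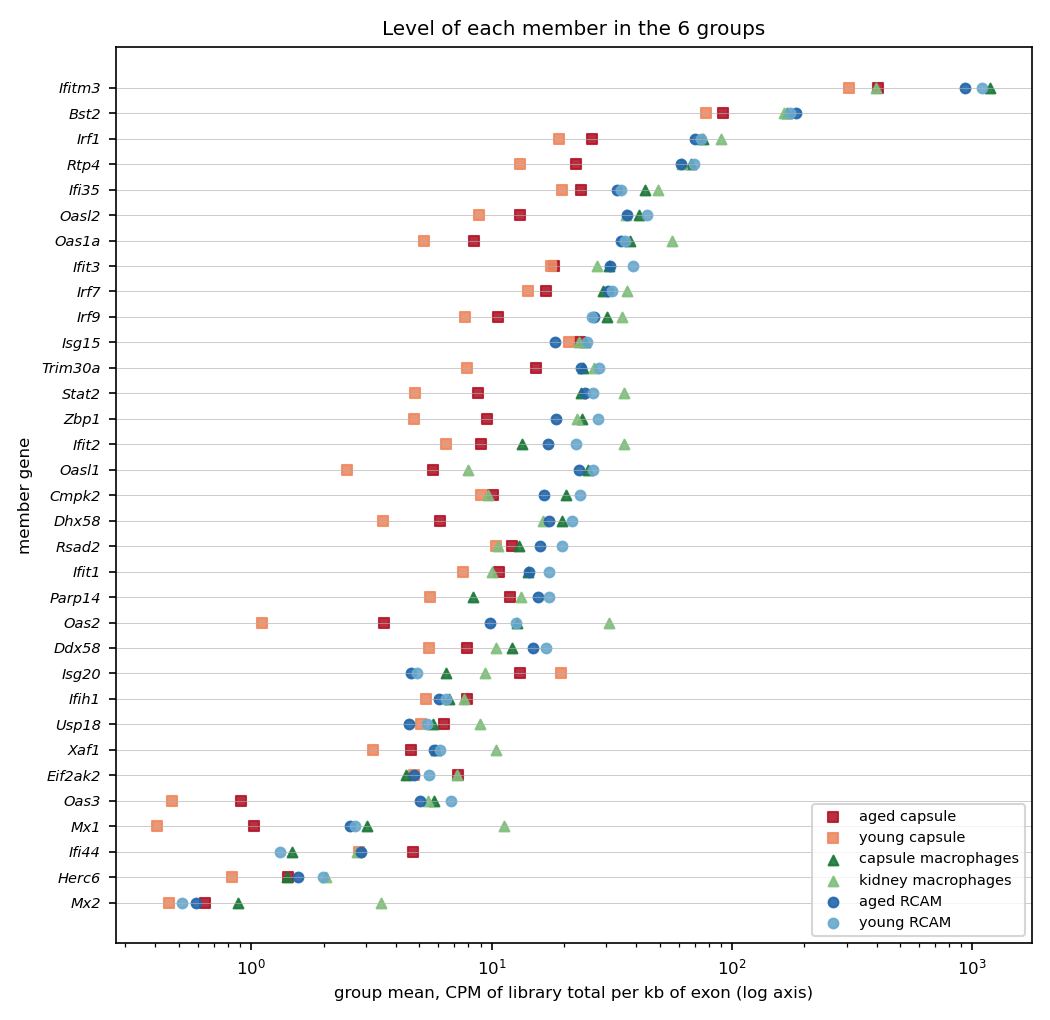
Group mean level of each member in CPM of the library total per kb of exon (log axis), with genes ordered by their level over the 6 groups (1 point per group, 3 or 4 libraries each). Squares are capsule tissue, triangles capsule and kidney macrophages, and circles RCAM. Young capsule tissue is the lowest group for 28 of 33 members, and Isg20 is an exception that is highest there.

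The median over the 33 members was 9.53 CPM per kb in aged and 5.54 in young capsule tissue, 19.7 in capsule and 16.4 in kidney macrophages, and 17.2 in aged and 22.4 in young RCAM. The SD of that median over libraries was 0.658 and 0.838 for aged and young capsules, 3.01 and 2.23 for capsule and kidney macrophages, and 3.5 and 2.82 for aged and young RCAM. Capsule tissue thus lay below the 4 other groups, which sorted by level run from kidney macrophages over aged RCAM and capsule macrophages to young RCAM, each next to a neighbour that differed by less than the larger of the 2 SDs. Young capsule tissue was the lowest group for 28 members, young RCAM the highest for 14 and kidney macrophages the highest for 13. Isg20, an exonuclease that degrades single-stranded RNA, ran against this with 13.1 ± 0.602 CPM per kb in aged and 19.5 ± 8.91 in young capsules, against 4.60 ± 0.756 in aged and 4.90 ± 0.729 in young RCAM. The tissue and the sorted groups were not tested against each other.

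**Figure D2:**
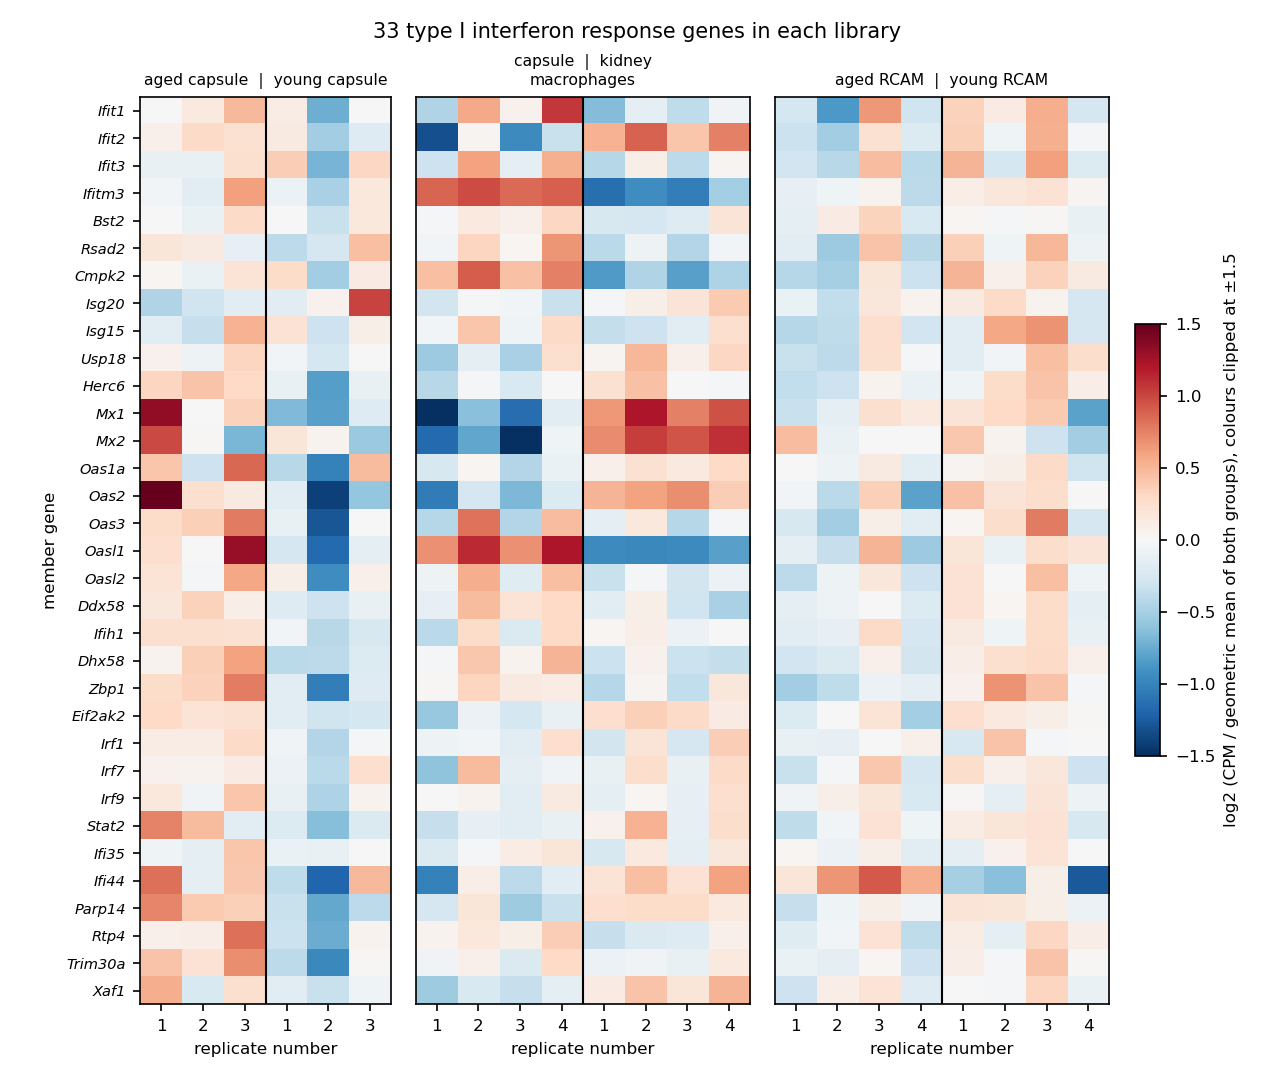
Each cell is 1 member in 1 library, as the log2 ratio of its CPM to the geometric mean over both groups of its comparison, with colours clipped at ±1.5. Aged capsule, capsule macrophage and aged RCAM libraries are left of the line in their panels and replicate numbers run along the axis. Young capsule replicate 2 is the lowest of 6 libraries for 27 of 33 members, and aged RCAM replicate 3 is the highest of its group for 31.

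In capsule tissue, almost all members had higher values in aged than in young mice, but no single member passed the test. From here on, CPM is scaled by TMM, the edgeR factor for composition, within each comparison. Of the 33 members, 31 had a positive log2 fold change, against 52.9% of all genes, and the median was 0.41 over the members and 0.03 over all genes. edgeR, with p-values adjusted over all 16350 genes, called 0 members, and 0.239% of all genes (0.153% higher and 0.0856% lower). At an unadjusted p under 0.05 there were 13 members higher and 0 lower, where 10.9% of all genes were higher and 11.7% lower. In 15 members every aged library lay above every young library, as in 14.2% of all genes, and in 0 members below, as in 12.8%. DESeq2 called 4 members higher (Oas2, Parp14, Trim30a and Zbp1), with 4.61% of all genes called higher and 6.86% lower. limma-voom called 0, with 0.0856% of all genes called higher and 0.0673% lower. In its fit the median log2 fold change was 0.4 over the members and 0.04 over all genes. Blocking on the replicate number, a pairing that rests on these same expression values and not on the labels, edgeR called 7 members higher (Dhx58, Oas2, Oasl1, Parp14, Rtp4, Trim30a and Zbp1), with 5.77% of all genes called higher and 7.66% lower. Adjusted p-values with the block, here and below, are therefore no separate support for a member.

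Parp14, an ADP-ribosyltransferase of the antiviral response (chr16:35832874-35871544, minus strand, GRCm38), stood closest to the threshold. It had 124, 98.6 and 96.1 CPM in aged capsules, against 59.3, 44.1 and 57.2 CPM in young capsules. The groups did not overlap, with a log2 fold change of 0.99 ± 0.19 (SE) and an edgeR adjusted p of 0.0711, and of 0.00719 with the block. Trim30a, a mouse TRIM protein known to restrain signalling by Toll-like receptors (chr7:104409025-104465193, minus strand), had 59.2, 51.4 and 71.3 CPM in aged capsules, against 33.6, 22.6 and 44.5 CPM in young capsules. Every aged library was above every young one (0.85 ± 0.26, adjusted p = 0.118, and 0.0118 with the block).

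All 5 nucleic acid sensors had non-overlapping, higher values in aged capsules and an unadjusted p under 0.05, against 14.2% of all genes not overlapping and higher and 10.9% higher at that p. Zbp1, which senses Z-form nucleic acid and can start necroptosis (chr2:173206612-173218923, minus strand), had 28.2, 29.7 and 39.7 CPM in aged capsules, against 20.7, 11.4 and 20.3 CPM in young capsules (log2 fold change 0.90 ± 0.27, edgeR adjusted p = 0.117, 0.0284 with the block). Young replicate 2 was well below the other young libraries. Dhx58, or LGP2, a helicase that tunes the RNA sensors (chr11:100694884-100704271, minus strand), had 15.7, 19.4 and 23.0 CPM in aged capsules, against 11.4, 11.5 and 13.2 CPM in young capsules (0.68 ± 0.21, adjusted p = 0.123, 0.0481 with the block). Eif2ak2, the kinase PKR that halts translation on double-stranded RNA, had 36.8, 34.7 and 35.1 CPM in aged capsules, against 26.9, 24.4 and 24.9 CPM in young capsules, with little spread in either group (0.48 ± 0.14, adjusted p = 0.117). The RNA sensors Ddx58 (RIG-I) and Ifih1 had log2 fold changes of 0.41 and 0.46.

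In the oligoadenylate synthase family, some members make a short nucleotide messenger when they meet double-stranded RNA. The family had positive values in 5 of 5 members, from 0.46 for Oasl2 to 1.54 for Oas2, with 3 of 5 not overlapping, against 14.2% of all genes. Oas2 had 26.6, 9.25 and 8.64 CPM in aged capsules, against 7.07, 2.98 and 5.24 CPM in young capsules. Aged replicate 1 was far above the other 5 libraries. Mx1, a GTPase that traps viral particles, had 5.80, 2.30 and 2.94 CPM in aged capsules, against 1.46, 1.31 and 2.03 CPM in young capsules, low throughout and again highest in aged replicate 1. The transcription factor Stat2 averaged 49.3 ± 14.8 CPM in aged and 29.5 ± 4.79 CPM in young capsules (SD, n = 3 each), without overlap.

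The log2 fold changes of the other roles ranged between 0.14 and 0.74 for the 4 transcription factors, between 0.04 and 0.66 for Isg15, Usp18 and Herc6, and between -0.05 and 0.39 for the 3 Ifit genes. For 4 effectors the fold change was close to 0. Isg15 averaged 17.0 ± 5.66 CPM in aged capsules and 16.5 ± 2.98 CPM in young capsules, and Ifit3 30.7 ± 4.56 CPM in aged and 31.8 ± 11.4 CPM in young capsules (SD, n = 3 each). Cmpk2 averaged 40.4 ± 4.37 CPM in aged and 38.9 ± 10.5 CPM in young capsules, and Rsad2 50.3 ± 5.66 CPM in aged and 47.3 ± 15.7 CPM in young capsules. The log2 fold changes were 0.04 for Isg15, -0.05 for Ifit3, 0.06 for Cmpk2 and 0.09 for Rsad2. Isg20 was the member furthest below zero, with 21.1, 23.5 and 25.9 CPM in aged capsules, against 25.6, 30.2 and 58.1 CPM in young capsules (-0.69 ± 0.30, edgeR adjusted p = 0.227), and young replicate 3 was far above the rest.

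Genes of other cell types differed with age in the same libraries. Pan-macrophage genes summed to 4877 to 12270 CPM of the library total in aged capsules and 2349 to 4754 CPM in young capsules, T cell genes to 117 to 145 CPM and 31.1 to 59.0 CPM, NK and cytotoxic genes to 42.4 to 43.9 CPM and 10.8 to 28.0 CPM, and monocyte genes to 3073 to 4119 CPM and 2335 to 2518 CPM. B cell genes summed to 244 to 300.4 CPM in aged and 140 to 182.5 CPM in young capsules, and plasma cell genes to 711 to 1223 CPM in aged and 339 to 499 CPM in young capsules. Proximal tubule genes went the other way, at 1382 to 6686 CPM in aged and 6902 to 27300 CPM in young capsules, as did brown fat genes, at 293 to 431 CPM in aged and 821 to 3270 CPM in young capsules. None of these sums overlapped between the groups. Genes listed for plasmacytoid dendritic cells, known for high interferon output, summed to 90.3 to 144 CPM in aged and 127 to 332 CPM in young capsules and overlapped. Their sum ran in the library order of the proximal tubule sum in each group (young replicates 1 to 3: 262, 127 and 332 CPM, against 17530, 6902 and 27300 CPM). It is therefore not read as a measure of these cells here or below. No list of cell type genes had a gene at 0 in all libraries of a group. The part of these cells in the member values was not tested, and in bulk tissue fewer cells of a type and less RNA per cell cannot be told apart. Young replicate 2 was the lowest library of its group for 29 of 33 members and held adrenal transcripts (210 CPM, against 12.4 to 19.8 CPM in the other young capsules), as did aged replicate 2 (6766 CPM). Without young replicate 2 the median was 0.26 and 6 members were higher at an unadjusted p under 0.05. Without both libraries the median was 0.37, with 6 members higher at that p. edgeR called 0 members in either case, where it called 387 of 17108 and 487 of 16606 genes. The share of all genes at that p was not counted for these fits.

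In RCAM the direction was the other way for most members, with small differences. Of 33 members, 29 had a negative log2 fold change in aged against young RCAM, where 49% of all genes were positive, and the median was -0.21, against -0.01 for all genes. edgeR, over 15182 genes, called 1 member higher, Ifi44, and 0 lower, with 4.8% of all genes called, 3.43% higher and 1.38% lower. At an unadjusted p under 0.05 there were 7 members lower and 1 higher, where 7.33% of all genes were lower and 10.1% higher. In 1 member all aged libraries lay above all young ones, as in 6.84% of all genes, and in 2 members, Dhx58 and Zbp1, all lay below, as in 4.81%.

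Ifi44, an interferon-induced protein of the cytoplasm (chr3:151730922-151749960, minus strand), rose in aged RCAM. It had 12.99, 18.3, 21.7 and 16.8 CPM in aged RCAM, against 8.11, 7.42, 12.2 and 4.81 CPM in young RCAM. The groups did not overlap, although aged replicate 1 and young replicate 3 came close (1.10 ± 0.26, edgeR adjusted p = 0.0436). The call was lost in 6 of 8 fits that left out 1 library, namely without young replicate 1, 2 or 4 or aged replicate 2, 3 or 4, at adjusted p = 0.0742 to 0.109. In 1 fit of all 6 groups it missed the threshold as well, at adjusted p = 0.066. Ifi44 had, like Isg20, higher means in both capsule groups than in young RCAM, at 4.72 ± 1.78 CPM per kb in aged capsules and 2.82 ± 1.57 in young capsules, against 2.86 ± 0.570 in aged and 1.32 ± 0.534 in young RCAM.

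The members nearest to a lower call were Zbp1, Dhx58, Cmpk2 and Ifitm3. Zbp1 had 54.8, 60.4, 74.1 and 71.6 CPM in aged RCAM, against 82.2, 126, 106 and 77.4 CPM in young RCAM (-0.59 ± 0.16, edgeR adjusted p = 0.0708). Dhx58 had 51.6, 54.4, 66.6 and 52.0 CPM in aged RCAM, against 67.5, 74.8, 77.1 and 66.7 CPM in young RCAM (-0.35 ± 0.10, adjusted p = 0.0808). In both genes the highest aged library stayed just under the lowest young one. Cmpk2, a mitochondrial nucleotide kinase, had 60.2, 57.1, 91.8 and 64.5 CPM in aged RCAM, against 115, 85.2, 103 and 88.6 CPM in young RCAM, and here aged replicate 3 reached into the young range (-0.52 ± 0.16, adjusted p = 0.0999). Ifitm3 had 631, 657, 708 and 523 CPM in aged RCAM, against 734, 773, 794 and 702 CPM in young RCAM, with 1 aged library above the lowest young one (-0.25 ± 0.09, adjusted p = 0.182). DESeq2 called Cmpk2, Dhx58 and Zbp1 lower and 1 member higher, with 3.32% of all genes called lower and 6.17% higher. limma-voom called 1 member higher and 0 lower, with 3.38% of all genes called higher and 1.51% lower. In its fit the median log2 fold change was -0.25 over the members and -0.003 over all genes.

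By role, the 5 genes of the oligoadenylate synthase family had log2 fold changes of -0.45 to -0.07, the 3 Ifit genes of -0.40 to -0.31, and Isg15, Usp18 and Herc6 of -0.45 to -0.26, all negative and none past the threshold. The 5 sensors lay between -0.59 and -0.12. The 4 transcription factors, at -0.13 to 0.00, and the Mx genes, at -0.09 for Mx1 and 0.16 for Mx2, were closest to 0.

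Single libraries weighed on this comparison. Aged replicate 3 was the highest of its group for 31 of 33 members, and young replicate 3 for 23. Without aged replicate 3, Cmpk2 (log2 fold change -0.69, edgeR adjusted p = 0.0159) and Dhx58 (-0.44, 0.0281) were called lower, as were 153 of all 15495 genes. The median was then -0.32 over the members and -0.005 over all genes. That fit is named because of the member values of this library, so it is no separate support for lower values. Fibroblast genes summed to 980 to 2749 CPM of the library total in aged RCAM and 565 to 779 CPM in young RCAM, and monocyte genes to 3625 to 4764 CPM in aged and 5694 to 6817 CPM in young RCAM. Plasmacytoid dendritic cell genes summed to 120 to 169 CPM in aged and 98.2 to 111 CPM in young RCAM, conventional dendritic cell genes to 480 to 595 CPM in aged and 430 to 475 CPM in young RCAM, endothelial genes to 25.2 to 54.9 CPM in aged and 15.1 to 24.03 CPM in young RCAM, and B cell genes to 127 to 153 CPM in aged and 101 to 126 CPM in young RCAM, with the B cell marker Ms4a1 at 0 in both. None of these sums overlapped. Their part in the member values was not tested.

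**Figure D3:**
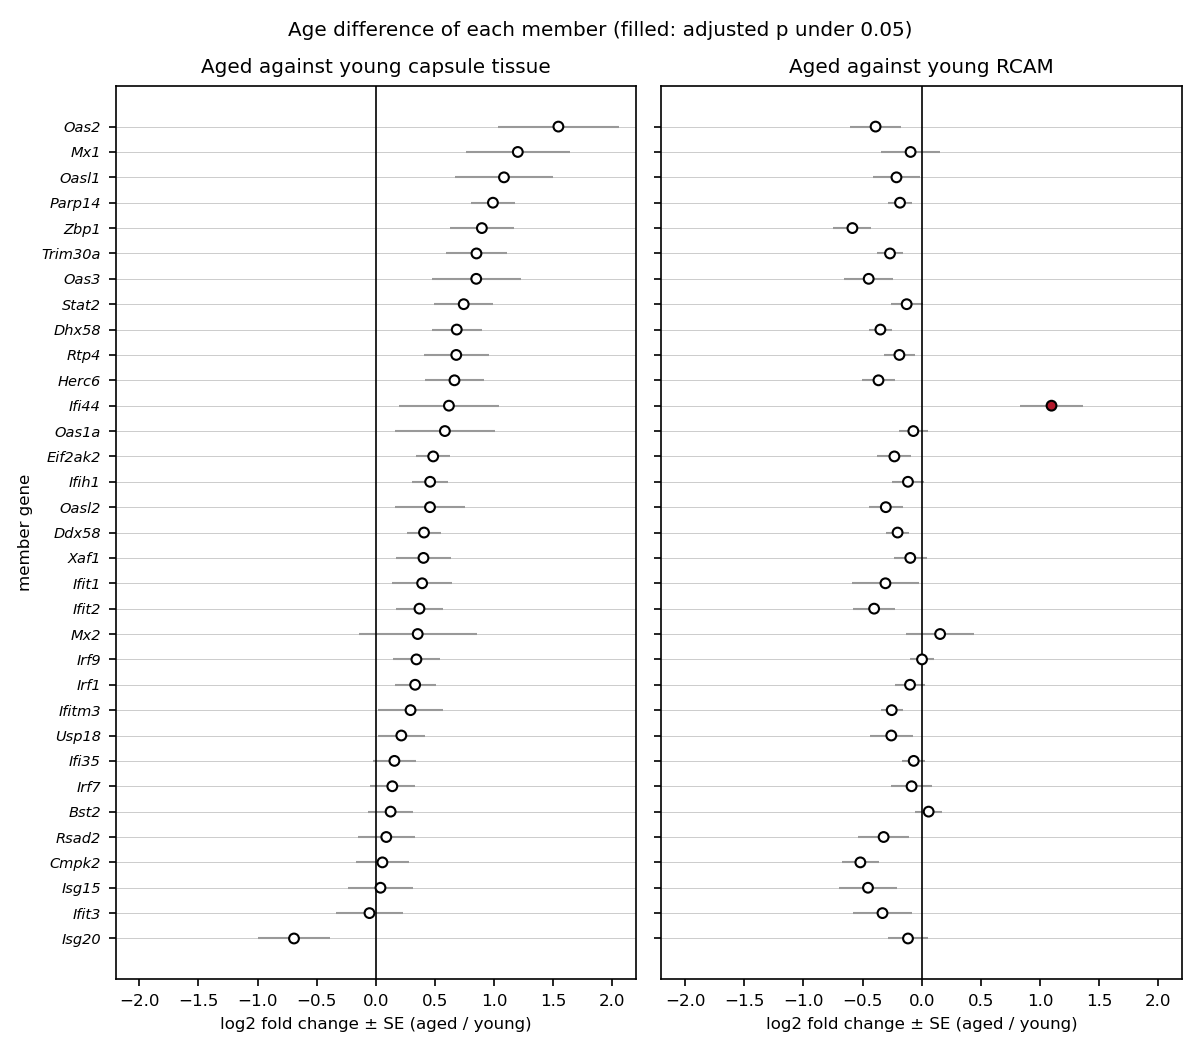
Log2 fold change with SE of each member, aged over young, in capsule tissue (left, 3 libraries against 3) and in RCAM (right, 4 against 4), in the order of the capsule values. Filled points passed an edgeR adjusted p of 0.05. In capsule tissue 31 of 33 points lie right of 0 and in RCAM 29 lie left of 0, with Ifi44 the filled point on the right.

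Whether the age difference itself differed between RCAM and capsule tissue was tested as an interaction over the 14 libraries and 18856 genes. That fit shared a single spread estimate per gene between capsule tissue and RCAM. The comparisons of groups were fitted apart because tissue and sorted libraries differ in spread, so the SE and p-values of the interaction may be too small for tissue. edgeR called 4 members lower and 0 higher, with 5.05% of all genes called, 1.93% lower and 3.12% higher, and 16 members were lower at an unadjusted p under 0.05, as were 9.2% of all genes, and 0 higher, as were 13.2% of all genes. The difference was negative for 31 of 33 members, with a median of -0.57, against 0.06 for all genes, of which 53.7% were positive. In 27 members the capsule value was positive and the RCAM value negative. In 4 both were positive and in 2 both negative. DESeq2 called 10 members lower, with 5.41% of all genes called lower and 6.92% higher, and limma-voom 4, with 1.49% lower and 3% higher. The fit with the replicate block called 8 lower (Dhx58, Oas1a, Oas2, Oasl1, Parp14, Rtp4, Trim30a and Zbp1), with 2.66% of all genes called lower and 4.62% higher. That block used the numbers of the RCAM libraries as well, which were not taken to pair.

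Parp14 had the smallest p, with a difference of -1.13 ± 0.20 on the log2 scale (edgeR adjusted p = 0.0142). In RCAM it had 120.3, 146, 162 and 147 CPM in aged and 174, 174, 162 and 143 CPM in young libraries, so its groups overlapped there, while they were apart in capsule tissue. Dhx58 differed by -0.99 ± 0.20 (adjusted p = 0.022) and Zbp1 by -1.44 ± 0.32 (adjusted p = 0.028), both higher in aged capsules and lower in aged RCAM with no overlap in either. Trim30a differed by -1.08 ± 0.28 (adjusted p = 0.0408). It had 97.6, 94.8, 106 and 84.0 CPM in aged RCAM, against 112, 103, 140.1 and 106 CPM in young RCAM, where aged replicate 3 reached above the lowest young library. Herc6, the ligase that attaches Isg15 in mice, came next and missed the threshold (-0.99 ± 0.27, adjusted p = 0.0506). Its values were 12.5, 13.4 and 12.2 CPM in aged and 9.17, 5.61 and 9.21 CPM in young capsules, which did not overlap, and 12.5, 13.1, 16.8 and 15.2 CPM in aged and 15.4, 19.5, 21.7 and 17.4 CPM in young RCAM, which did.

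All 5 sensors had a negative difference, from -1.44 to -0.54, and an unadjusted p under 0.05. The 5 genes of the oligoadenylate synthase family had differences of -1.89 to -0.61, and 4 of them an unadjusted p under 0.05, but the edgeR adjusted p was 0.0624 at the lowest, for Oas2. Isg20 and Ifi44 were the members with a positive difference, at 0.61 and 0.52, neither past the threshold.

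Parp14 and Zbp1 passed in all 14 fits that left out 1 library. Dhx58 was lost without young capsule replicate 1 (-0.96, edgeR adjusted p = 0.0508). Trim30a was lost in 11 of 14 fits, without any 1 of the 8 RCAM libraries, young capsule replicate 1 or aged capsule replicate 1 or 3, at adjusted p = 0.0541 to 0.0813.

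**Figure D4:**
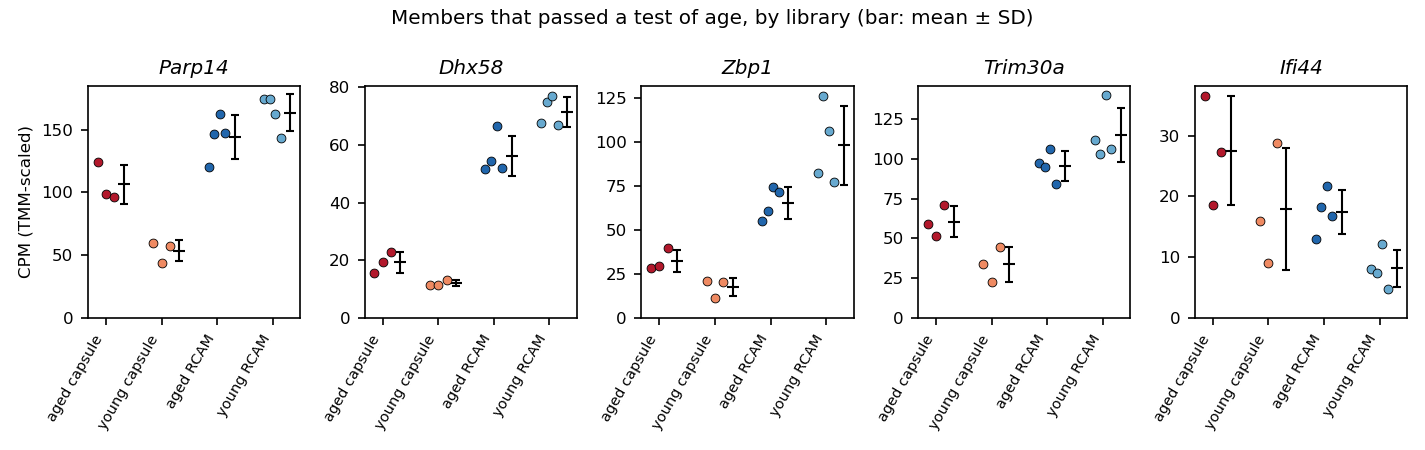
CPM, scaled by TMM within capsule tissue and within RCAM, of the 5 members that passed a test of age or of the difference in age effect. Points are libraries and bars give mean ± SD (n = 3 for capsule tissue, 4 for RCAM), with aged left of young. Parp14, Dhx58, Zbp1 and Trim30a are higher in aged than in young capsules and lower on average in aged than in young RCAM, while the mean of Ifi44 is higher in aged libraries of both kinds.

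Between capsule and kidney macrophages, members differed in both directions. edgeR, over 15701 genes, called 7 members higher and 10 lower in capsule macrophages. Among all genes 55.4% were called, 27.3% higher and 28.2% lower, so those counts stand near the background, and the median was 0.01 over the members and -0.03 over all genes. In 3 members every capsule library lay above every kidney library, as in 25.7% of all genes, and in 8 members below, as in 27.5%. On plain library totals without TMM the split was 3 higher and 13 lower, where 3101 of 15701 genes were called higher and 5742 lower. Ddx58, Dhx58, Rsad2 and Rtp4 were then not called, and Herc6, Isg20 and Usp18 were called lower.

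**Figure D5:**
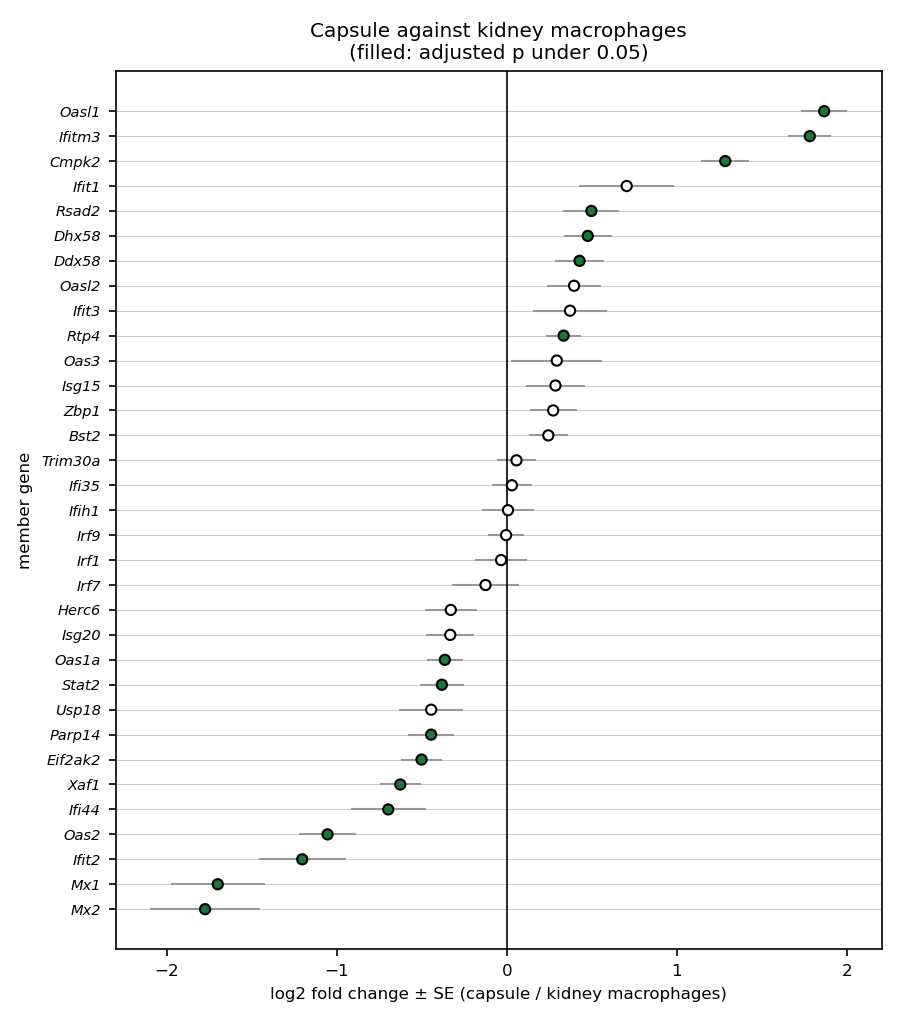
Log2 fold change with SE of each member in capsule over kidney macrophages, 4 libraries against 4. Filled points passed an edgeR adjusted p of 0.05. Oasl1, Ifitm3 and Cmpk2 lie furthest right and Mx2, Mx1, Ifit2 and Oas2 furthest left.

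Of the members that rose, Oasl1, Ifitm3 and Cmpk2 stood apart. Oasl1, known in mice to hold back the translation of Irf7 (chr5:114923240-114937915, plus strand), had 59.2, 79.9, 59.1 and 85.3 CPM in capsule macrophages, against 19.0, 18.8, 19.0 and 20.96 CPM in kidney macrophages (1.87 ± 0.14, edgeR adjusted p = 1.49e-06). Ifitm3 (chr7:141009586-141010770, minus strand) had 851, 917, 838 and 865 CPM in capsule macrophages, against 212, 244, 226 and 327 CPM in kidney macrophages (1.78 ± 0.13, adjusted p = 1.34e-06). Both were far above the kidney range in all 4 capsule libraries. Cmpk2 had 79.3, 109, 78.9 and 98.3 CPM in capsule macrophages, against 32.2, 42.6, 32.9 and 42.2 CPM in kidney macrophages (1.28 ± 0.14, adjusted p = 2.8e-05), again without overlap. Rsad2, or viperin, which makes a chain-terminating nucleotide and neighbours Cmpk2 in the genome, rose by less (0.50 ± 0.16, 0.0248), as did the sensors Dhx58 (0.48, 0.0156) and Ddx58 (0.43, 0.0291) and Rtp4 (0.33, 0.0204), where the values are the log2 fold change and the edgeR adjusted p. Their groups overlapped.

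Both Mx GTPases fell. Mx1 had 6.92, 13.8, 9.62 and 19.0 CPM in capsule macrophages, against 33.3, 49.2, 35.9 and 41.2 CPM in kidney macrophages (-1.70 ± 0.28, edgeR adjusted p = 0.000421). Mx2, annotated as a polymorphic pseudogene, had 2.69, 3.52, 1.74 and 5.79 CPM in capsule macrophages, against 9.90, 12.4, 11.6 and 12.9 CPM in kidney macrophages (-1.77 ± 0.32, adjusted p = 0.000875). The highest capsule library stayed below the lowest kidney library for both. Within the oligoadenylate synthase family the members split. Oas2 had 42.1, 72.7, 54.6 and 75.3 CPM in capsule macrophages, against 123, 132, 141 and 112 CPM in kidney macrophages (-1.05 ± 0.17, adjusted p = 0.000402), and Oas1a had 73.4, 88.7, 64.1 and 80.7 CPM in capsule macrophages, against 91.3, 101, 95.6 and 107 CPM in kidney macrophages (-0.36 ± 0.10, 0.0127). Both fell while Oasl1 rose, and Oas3 (0.29) and Oasl2 (0.40) did not pass.

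The same held within the Ifit family. Ifit2, which binds viral RNA and is known to promote cell death, fell, with 33.2, 84.8, 42.4 and 65.6 CPM in capsule macrophages, against 118, 152, 109.8 and 139 CPM in kidney macrophages (-1.20 ± 0.26, edgeR adjusted p = 0.00237). Ifit1 (0.71, 0.0522) and Ifit3 (0.37, 0.166) had positive values that did not pass. For Ifit2, Oas2 and Mx1, capsule replicates 1 and 3 were below replicates 2 and 4. Xaf1, a partner of the apoptosis inhibitor XIAP, had 25.2, 31.2, 28.7 and 33.4 CPM in capsule macrophages, against 39.9, 49.4, 41.5 and 51.9 CPM in kidney macrophages (-0.63 ± 0.12, adjusted p = 0.0014). Eif2ak2 had 19.3, 26.9, 23.9 and 26.6 CPM in capsule macrophages, against 34.0, 36.7, 35.0 and 31.1 CPM in kidney macrophages (-0.50 ± 0.12, adjusted p = 0.00529). The groups of Ifit2, Xaf1 and Eif2ak2 did not overlap, and Eif2ak2 was the sensor that fell. Ifi44 (-0.70, 0.0212), Parp14 (-0.44, 0.0166) and Stat2 (-0.38, 0.0274) completed the members that fell.

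Irf1, Irf7 and Irf9, the remaining transcription factors, did not pass. Irf1 had 309, 316, 291 and 388 CPM in capsule macrophages, against 269, 371, 272 and 422 CPM in kidney macrophages. Bst2 had 147, 166, 159 and 186 CPM in capsule macrophages, against 127, 126, 131 and 171 CPM in kidney macrophages, and overlapped, as Irf1 did. Rtp4 had 142, 153, 146 and 177 CPM in capsule macrophages, against 108, 118, 120.1 and 144 CPM in kidney macrophages, with capsule replicate 1 just within the kidney range. Ifi35 had 68.8, 78.5, 86.4 and 90.7 CPM in capsule macrophages, against 67.6, 88.1, 72.2 and 89.6 CPM in kidney macrophages, in the same range. Leaving out 1 library ended the calls of Ddx58 (without capsule macrophage replicate 2 or 4 or kidney macrophage replicate 1, 3 or 4), Rsad2 (capsule 4, kidney 1 or 3), Rtp4 (capsule 4, kidney 1, 2 or 3), Stat2 (capsule 1, kidney 2 or 4), Ifi44 (kidney 2 or 4) and Dhx58 (kidney 4), at adjusted p = 0.0517 to 0.0921. The other 11 calls held in all 8 such fits. In 1 fit of all 6 groups the calls of Ifi44, Oas1a, Rsad2, Rtp4 and Stat2 were lost, at adjusted p = 0.082 to 0.19. This left 5 members higher and 7 lower, where 4229 of 19485 genes were called higher and 4440 lower. Fibroblast genes summed to 643 to 941 CPM of the library total in capsule and 11.8 to 17.5 CPM in kidney macrophages, monocyte genes to 3839 to 5405 CPM in capsule and 1363 to 1441 CPM in kidney macrophages, and neutrophil genes to 2193 to 2390 CPM in capsule and 135 to 146 CPM in kidney macrophages, with the neutrophil marker Ly6g at 0 in capsule macrophages. T cell genes summed to 51.6 to 67.6 CPM in capsule and 7.49 to 17.3 CPM in kidney macrophages. Lower in capsule macrophages were plasmacytoid dendritic cell genes, at 109 to 159 CPM in capsule and 906 to 945 CPM in kidney macrophages, loop and distal nephron genes, at 2.87 to 24.5 CPM in capsule and 273 to 430 CPM in kidney macrophages, and proximal tubule genes, at 19.2 to 163 CPM in capsule and 1744 to 3185 CPM in kidney macrophages. None of these sums overlapped. Their part in the member values was not tested.

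The most abundant members did not pass the test of age. Irf1 had 95.8, 95.6 and 108 CPM in aged capsules, against 85.1, 65.1 and 87.3 CPM in young capsules, and 263, 260.3, 282 and 300.4 CPM in aged RCAM, against 239.9, 381, 280 and 284 CPM in young RCAM. Bst2 had 75.9, 71.2 and 92.9 CPM in aged capsules, against 75.5, 60.04 and 84.4 CPM in young capsules, and 145, 175, 203 and 137 CPM in aged RCAM, against 165, 158, 163 and 149 CPM in young RCAM. Irf1 in capsule tissue was the only one of these 4 pairs of groups without overlap. Ifi35, a partner of Nmi in innate signalling, had 35.2, 33.5 and 49.1 CPM in aged capsules, against 34.5, 34.2 and 36.9 CPM in young capsules, and 59.8, 54.8, 62.1 and 52.4 CPM in aged RCAM, against 52.8, 61.1, 67.6 and 58.5 CPM in young RCAM, with overlap in both. Rtp4 had 37.8, 38.4 and 63.3 CPM in aged capsules, against 28.5, 21.4 and 37.1 CPM in young capsules, which were just apart, and 121, 134, 159.9 and 106 CPM in aged RCAM, against 149.5, 125, 172 and 148 CPM in young RCAM, which overlapped. Ifitm3 in capsule tissue had 228, 209 and 358 CPM in aged libraries, against 220.3, 168 and 261 CPM in young libraries, and overlapped as well.

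Interferon transcripts themselves were at the limit of detection. Of 21 interferon genes looked for, none passed the expression filter in the 3 comparisons of groups. Ifng, or interferon gamma, had 7, 19 and 17 counts in aged capsules and 1, 7 and 5 in young capsules, whose library totals were lower. Its summed counts were 22 in capsule and 27 in kidney macrophages, and 3 in aged and 13 in young RCAM. Ifnz had summed counts of 0 in young capsules to 7 in aged RCAM. Ifnb1, or interferon beta, had 29 counts in young RCAM replicate 3 and 4 in replicate 4, and 13, 1, 11 and 4 in the 4 kidney macrophage libraries. It had 2 in young capsule replicate 3 and 0 in all other libraries, those of aged capsules, capsule macrophages and aged RCAM among them. Ifna1, Ifna4 and Ifna5 had 1, 2 and 2 counts, all in young RCAM replicate 3, which was also the highest library of its group for 23 of 33 members. Kidney macrophage replicate 1, with 13 Ifnb1 counts, was the highest of its group for 0 members and the lowest for 18. Aged RCAM replicate 3, with 0 Ifnb1 counts, was the highest of its group for 31 members. A link between these counts and the member levels was not tested. A count of 0 allows up to 3 counts per library, for counting error only.

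Both receptor chains were detected in all 22 libraries. Ifnar1 fell in capsule macrophages, with 203, 207, 205 and 225 CPM, against 330.2, 361, 325 and 311 CPM in kidney macrophages (-0.66 ± 0.07, edgeR adjusted p = 2.82e-05), and so did Ifnar2, with 142, 148, 123 and 152 CPM, against 176, 185, 178 and 207 CPM in kidney macrophages (-0.40 ± 0.09, 0.00278). Neither gene overlapped between groups. The kinase Jak1 rose (0.87 ± 0.08, 1.24e-05). Of 10 receptor and kinase genes 1 rose and 5 fell there, where 55.4% of all genes were called in either direction. By age, edgeR called 0 of them in capsule tissue (3 higher and 0 lower at an unadjusted p under 0.05, and 0 called by DESeq2), 0 of the 9 tested in RCAM (3 higher and 0 lower at that p) and 0 in the interaction (1 higher and 3 lower at that p). Of all genes at that p, 10.9% were higher and 11.7% lower in capsule tissue, and 10.1% and 7.33% in RCAM. In the interaction the shares were 13.2% higher and 9.2% lower.

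Ifnar1 had 88.3, 72.0 and 69.9 CPM in aged capsules, against 65.7, 64.8 and 53.7 CPM in young capsules, and 237, 245, 249 and 255 CPM in aged RCAM, against 235, 191, 221 and 195 CPM in young RCAM. It was higher without overlap in aged libraries of both kinds. Ifnar2 had 41.3, 50.3 and 48.7 CPM in aged capsules, against 43.0, 60.5 and 37.6 CPM in young capsules, and 132, 147, 135 and 123 CPM in aged RCAM, against 135, 127, 137 and 144 CPM in young RCAM. It overlapped in both.

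Other genes of the pathway were read from lists of receptors, sensors, kinases, negative regulators and further interferon-stimulated genes, 93 in all. In capsule tissue edgeR called 0 of 86 tested, with 36 higher and 0 lower at an unadjusted p under 0.05, where 10.9% of all genes were higher and 11.7% lower. DESeq2 called 13 higher, with 4.61% of all genes called higher and 6.86% lower. In the interaction edgeR called 18 of 87 lower and 0 higher, with 1.93% of all genes called lower and 3.12% higher. Among these, Tbk1 (-0.78, edgeR adjusted p = 0.0222) and Ikbke (-1.16, 0.0342) are kinases that activate interferon-inducing factors, Samhd1 (-1.0, 0.0275) depletes nucleotides, and Adar (-0.80, 0.0295) edits double-stranded RNA. Parp9 (-0.82, 0.0146) and its partner Dtx3l (-1.01, 0.0172) were also lower, as was Trim30b (-2.60, 0.0146), a relative of Trim30a whose reads may be split between near-identical copies.

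In RCAM, edgeR called 1 of 85 listed genes higher and 7 lower with age, with 3.43% of all genes called higher and 1.38% lower. Slfn1 had 20.6, 21.7, 31.3 and 18.7 CPM in aged RCAM, against 45.7, 51.4, 55.7 and 39.4 CPM in young RCAM (-1.06 ± 0.17, edgeR adjusted p = 0.00775). Slfn2, which keeps resting immune cells quiescent, fell by less (-0.50, 0.00517), as did Ifitm6 (-0.67, 0.00945), Dtx3l (-0.41, 0.0173), Samhd1 (-0.49, 0.0277), Pml (-0.32, 0.0448) and Parp9 (-0.38, 0.0487). Socs3, a feedback inhibitor of cytokine signalling, rose (0.67, 0.0236). In capsule against kidney macrophages 31 of 86 rose and 26 fell, where 27.3% of all genes rose and 28.2% fell, so these counts stand near the background. The kinase Ikbke rose (2.81 ± 0.29, 1.97e-05), while the DNA sensors Cgas (-1.64 ± 0.17, 2.08e-05) and Aim2 (-1.46 ± 0.12, 3.72e-06) fell. Irf8, Myd88, Trex1, Ifi47 and Ifi211 were listed at 0 in all 22 libraries and are not interpreted.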

How the data were processed

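Whole-number counts of reads per gene, not normalized, were deposited by the authors for 22 libraries. GRCm38 is named in the submitters' processing notes. Per the labels' protocols, a stranded mRNA kit and a low-input kit were used, without saying for which sample, with single-end reads. Aligner, counter and strand setting were not given in the sources used here. Reads of overlapping genes may therefore be shared (Irf9 and Rnf31 share 123 exon bases on 1 strand, Herc6 and Gm45193 1269). Symbols, coordinates and exon lengths came from GENCODE M21 (52489 of 52636 identifiers found), and promoter sequences from RefSeq (GRCm38.p6).

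Differences in counts were tested in R 4.3.3 with edgeR 4.0.16 (quasi-likelihood F test, 2-sided, TMM scaling, default expression filter, Benjamini-Hochberg adjustment over all genes, threshold 0.05), with DESeq2 1.42.0 and limma-voom 3.58.1 as alternatives. Each main fit held only the groups compared, and all 33 members passed its filter. The stricter filter, a mean log2 CPM of at least 3, kept 30 members in capsule tissue and 32 in macrophages. It kept 32 in RCAM and 31 in the interaction. Levels in a comparison are TMM-scaled CPM; list sums and levels per kb use plain library totals. The procedure was tested on simulated data. The members, gene lists, marker lists and alternatives were chosen with earlier results of these data known. Values of every library are given for members past the threshold in a comparison (up to 10 of smallest p, or the 5 of smallest p where fewer than 5 passed), for the 5 most abundant members, and for Ifnar1, Ifnar2 and Ifnb1 of the pathway. Values of some listed genes are not reported here. In capsule tissue Oas2, Mx1, Stat2, Isg15, Isg20, Ifit3, Cmpk2 and Rsad2, and in RCAM the pathway gene Slfn1, were picked from their values.

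The titles number the replicates in each group without stating a shared animal. For capsule tissue, aged and young libraries of 1 number had correlated residuals around their group means (r = 0.201, 0.54 and 0.498) over 10441 genes whose mean log2 CPM was 3 or more, and at 0.0986, 0.353 and 0.31 over all genes tested. The numbers were taken to pair the capsule libraries from the first check, made on the expression values themselves. Residuals around a group mean cancel out over the libraries of the group, so these values of r are not independent of each other. Number 2, with r = 0.54, joins the aged and young libraries that held adrenal transcripts, and the part of these transcripts in the correlation was not tested. In macrophages and RCAM the numbers were not taken to pair. Alternatives covered the test, scaling, filter, samples in the fit, the block and leaving out libraries.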

Additional observations from a re-analysis of the deposited data

Results flagged for a closer look

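Of 132 groups of 4 libraries, 1 per member and group, 5 held a library whose gap to the nearest other exceeded Dixon's 95% critical value, where chance gives about 1 in 20. Aged RCAM replicate 3 stood above its group for Ifit3 (80.4 CPM) and Isg15 (18.7 CPM). Kidney macrophage replicate 4 stood above its group for Bst2 (171 CPM) and Oasl1 (20.96 CPM), and kidney macrophage replicate 2 for Dhx58 (60.8 CPM). Capsule tissue groups of 3 were not checked.

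The age effect differed between RCAM and capsule tissue for 4 members by the edgeR interaction test, as RCAM minus capsule on the log2 scale. The differences were -1.13 for Parp14, -0.99 for Dhx58, -1.44 for Zbp1 and -1.08 for Trim30a.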

How the results depend on the processing

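No called member turned its direction under any alternative run. In capsule tissue, where edgeR called 0 members, DESeq2 called 4, no expression filter 1 (Parp14), 1 fit of all 6 groups 14 and the replicate block 7, all higher. All genes called there numbered 39 in edgeR, 25 in limma-voom, 1876 in DESeq2, 1095 with no filter, 2196 with the block and 3097 of 19485 in the fit of all 6 groups (2293 higher and 804 lower). Plain library totals moved the median of all genes by 0.12 in capsule tissue, by -0.21 in macrophages (members' median -0.2, against 0.01) and by -0.13 in the interaction. The fit of all 6 groups moved it by 0.15 in capsule tissue. Relative to all genes the members' median was 0.37 with TMM and 0.38 without in capsule tissue, and 0.04 in both in macrophages. In RCAM, where 1 member was called, DESeq2 called 4 and the fit of all 6 groups 0, among 1441 of 15182 and 737 of 19485 genes called. In the interaction, with 4 called, DESeq2 called 10 and library totals 7, where 1020 and 563 of 18856 genes were called lower. A stricter filter on mean log2 CPM called 8 of the 31 members it kept, where 511 of 10234 genes were called lower. The main fit called 363 of 18856 genes lower. The replicate block, which here also used the unpaired RCAM numbers, called 8. The median of aged capsules was 9.53 CPM per kb on library totals and 8.42 with TMM over all libraries.

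Leaving out 1 library gave 0 calls in capsule tissue in each of 6 fits, with medians of 0.26 to 0.53, among 0 to 387 of all genes called. It gave 14 to 19 calls in macrophages with medians of -0.05 to 0.09, among 7745 to 8820 of all genes called. In RCAM it gave 0 to 2 calls with medians of -0.32 to -0.16, among 451 to 629 of all genes called. In the interaction it gave 2 calls without young capsule replicate 1, among 327 of 19551 genes called. It gave up to 6 there without aged capsule replicate 3, among 1594 of 19519 genes called. Numbers did not pair the other libraries (r = 0.0357, 0.0235, -0.0478 and 0.0184 in macrophages, and -0.108, -0.0589, -0.0261 and -0.0494 in RCAM), and the block gave 22 calls in macrophages, 11 in each direction and among 8221 genes called in all, and 1 call in RCAM, among 336. The 3 or 4 libraries per group limit the precision of every value.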
